A study of Mus musculus with 12 samples.

Results

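Stigmasterol-injected mice were set against vehicle-injected mice over both sampling times at once, with the time after injection (1 h or 6 h) as an additive factor and no interaction. All 12 RNA-seq libraries of the series entered: 6 from mice given stigmasterol at 100 mg/kg (3 at 1 h and 3 at 6 h) and 6 from mice given vehicle (3 at 1 h and 3 at 6 h). Every animal was a wild-type C57BL/6 mouse injected intraperitoneally, and each gave 1 hippocampal library. The treatment field of the labels names beta-sitosterol as the injected compound, whereas the title of the series, its agent field and the descriptions of the samples name stigmasterol, which is the name used here. The dose of 100 mg/kg stands in that treatment field and was taken as the dose of the stigmasterol group. Sex, age, what the vehicle contained and whether the libraries were stranded are not given in the sources used here. Total counts were 38117958 to 42043875 in stigmasterol libraries and 28676812 to 33217636 in vehicle libraries at 1 h, and 30574980 to 32668059 in stigmasterol libraries and 27613253 to 34805747 in vehicle libraries at 6 h. The 1 h stigmasterol libraries were thus all deeper than the 1 h vehicle libraries, and the part of depth in the results was not tested.

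Stigmasterol is a plant sterol whose ring system is that of cholesterol, and it differs from beta-sitosterol by a double bond in the side chain. In cells, sterols are sensed by the SREBP system, which drives cholesterol synthesis and uptake, and by the liver X receptors, which drive sterol efflux. In the hippocampus, neuronal activity and stress hormones both act within hours on transcription: immediate early genes such as those of the AP-1 family (dimers of Jun and Fos proteins) respond first, and the glucocorticoid receptor has its own set of target genes.

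Adding both times together gave 6 genes higher and 0 lower with stigmasterol at an adjusted p below 0.05 (edgeR quasi-likelihood test, Benjamini-Hochberg adjustment), which is 0.0331% of 18112 genes tested. They were Jund, Endog, Grcc10, Scand1, Ccdc85b and CAAA01147332.1. The last, a gene on a scaffold outside the assembled chromosomes, lies outside the naming rule and was named after its values were seen. With the libraries of 1 time alone, 0 genes passed with edgeR at 1 h (1600 at an unadjusted p below 0.05) and 0 at 6 h (482). At an unadjusted p below 0.05 lay 1742 genes (9.62%), of which 854 were higher (4.72% of all tested) and 888 lower (4.9%). DESeq2 called 120 genes, 94 higher and 26 lower, all 6 among them, while limma-voom called 1 and limma on the authors' normalized values called 2, in each case higher. Counts of calls rested on single libraries. Leaving out stigmasterol replicate 23 at 6 h gave 73 genes, and leaving out any one of stigmasterol replicates 8 and 11 (1 h), 13 and 22 (6 h) or vehicle replicates 5 (1 h), 12, 14 and 21 (6 h) gave 0. Without stigmasterol replicate 1, vehicle replicate 4 or vehicle replicate 9 (all 1 h) the count was 3, 3 and 2.

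**Figure D1:**
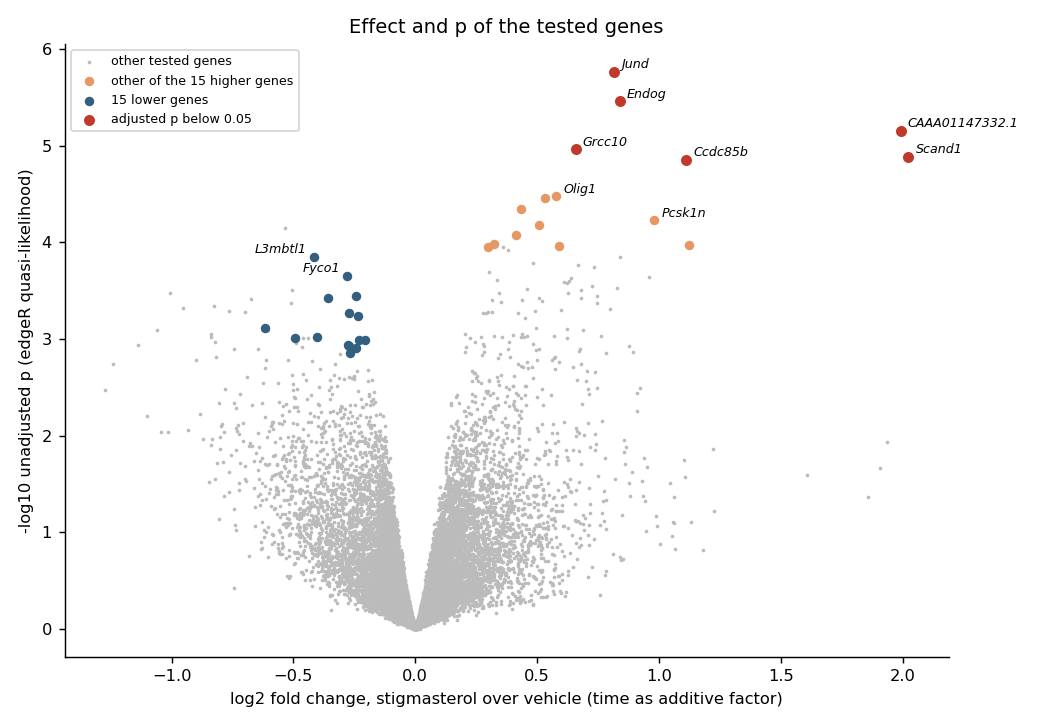
Effect of stigmasterol against vehicle with time as an additive factor (x axis, log2 fold change) and unadjusted p (y axis, minus log10) for the 18112 genes tested. The 6 genes past an adjusted p of 0.05 (red) all lie on the right, at log2 fold changes between 0.66 and 2.02. The 15 lower genes with the smallest p among named genes averaging 1 CPM or more (blue) lie between -0.62 and -0.21.

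The 5 called genes with a coding sequence in the annotation files used here were rich in G and C, so the 60 bases of each with the highest G and C content are shown beside those of the 3 lower genes with the smallest p among named genes (predicted and unnamed transcripts passed over). They were read from the coding sequences of GENCODE M21 on GRCm38, 5′ to 3′, and capitals mark runs of at least 8 bases that are all G or C.
Jund: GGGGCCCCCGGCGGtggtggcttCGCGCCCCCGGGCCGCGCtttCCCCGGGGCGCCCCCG
Endog: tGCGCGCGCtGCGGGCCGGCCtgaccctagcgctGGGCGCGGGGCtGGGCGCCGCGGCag
Grcc10: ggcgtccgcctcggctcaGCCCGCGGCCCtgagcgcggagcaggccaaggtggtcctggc
Scand1: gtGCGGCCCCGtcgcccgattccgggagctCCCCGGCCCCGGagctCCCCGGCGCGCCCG
Ccdc85b: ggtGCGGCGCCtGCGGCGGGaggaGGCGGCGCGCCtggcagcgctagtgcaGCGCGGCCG
L3mbtl1: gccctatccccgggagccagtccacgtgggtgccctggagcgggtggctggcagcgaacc
Fyco1: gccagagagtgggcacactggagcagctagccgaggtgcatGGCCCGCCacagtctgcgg
Ralgapa2: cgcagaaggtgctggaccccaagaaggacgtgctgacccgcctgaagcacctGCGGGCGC
Over the whole coding sequence, G and C made up 70.7% in Jund (1023 bases), 66.0% in Endog (882 bases), 60.3% in Grcc10 (378 bases), 75.6% in Scand1 (426 bases) and 69.6% in Ccdc85b (606 bases). The 3 lower genes had longer coding sequences with less G and C, at 56.6% in L3mbtl1 (2478 bases), 53.6% in Fyco1 (4311 bases) and 47.6% in Ralgapa2 (5730 bases). Over the longest transcript, called and lower genes overlapped. L3mbtl1 had 56.75% G and C there, against 56.43% in Grcc10 and 54.76% in Ccdc85b. The transcript of Ccdc85b (4715 bases) was longer than that of L3mbtl1 (2724 bases).

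Jund encodes JunD, an AP-1 subunit (ENSMUSG00000071076, chr8:70698949-70700616, GRCm38). At 1 h it stood at 18.95, 22.55 and 23.98 CPM (counts scaled to a common library size) in stigmasterol libraries, against 9.64, 12.7 and 13.8 CPM in vehicle libraries. At 6 h it stood at 22.2, 28.02 and 19.8 CPM in stigmasterol libraries, against 13.6, 12.65 and 14.8 CPM in vehicle libraries. Every stigmasterol library was above every vehicle library, and the log2 fold change was 0.81 ± 0.10 (SE, adjusted p = 0.0312). Sizes at the 2 times were 0.86 ± 0.15 at 1 h and 0.77 ± 0.15 at 6 h. With each library's trends with GC content and length removed, the log2 fold change of Jund was 0.49 and its adjusted p 0.0334.

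Endog encodes endonuclease G, a nuclease of mitochondria (ENSMUSG00000015337, chr2:30171493-30174069). Its level averaged 4.31 ± 0.75 CPM in stigmasterol libraries and 2.41 ± 0.23 CPM in vehicle libraries (SD, n = 6 each), with no overlap (lowest 3.60 CPM with stigmasterol, highest 2.70 CPM with vehicle). The log2 fold change was 0.84 ± 0.11 (adjusted p = 0.0315), at 0.87 ± 0.17 at 1 h and 0.81 ± 0.17 at 6 h.

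Grcc10 (ENSMUSG00000072772, chr6:124739183-124741374) averaged 22.03 ± 2.9 CPM in stigmasterol libraries and 13.98 ± 2.04 CPM in vehicle libraries. Its lowest stigmasterol library, at 19.6 CPM, was above its highest vehicle library, at 15.7 CPM, and the log2 fold change was 0.66 ± 0.10 (adjusted p = 0.0425). Ccdc85b, a coiled-coil protein gene (ENSMUSG00000095098, chr19:5453180-5457894), had 15.1, 16.1 and 23.2 CPM at 1 h with stigmasterol, against 5.32, 7.94 and 9.79 CPM with vehicle. At 6 h it had 19.2, 30.1 and 16.1 CPM with stigmasterol, against 10.04 to 11.8 CPM with vehicle. The groups did not overlap, and the log2 fold change was 1.11 ± 0.17 (adjusted p = 0.0425).

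The largest fold changes of the 6 were in genes of low counts. Scand1, a SCAN domain protein gene (ENSMUSG00000046229, chr2:156311847-156312704), had 34, 81 and 86 counts in the 1 h stigmasterol libraries, against 6, 12 and 13 counts in the 1 h vehicle libraries. At 6 h it had 75, 124 and 48 counts with stigmasterol, against 25, 23 and 23 counts with vehicle. The groups were apart at each time but not over all 12 libraries, since stigmasterol replicate 1 at 1 h (0.804 CPM) lay below vehicle replicate 21 at 6 h (0.828 CPM). Its log2 fold change was 2.02 ± 0.31 (adjusted p = 0.0425). CAAA01147332.1 (ENSMUSG00000095742) had 48 to 94 counts in stigmasterol libraries and 2 to 23 counts in vehicle libraries, with a log2 fold change of 1.99 ± 0.29 (adjusted p = 0.0420). Neither gene was kept by the stricter filter on low counts.

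**Figure D2:**
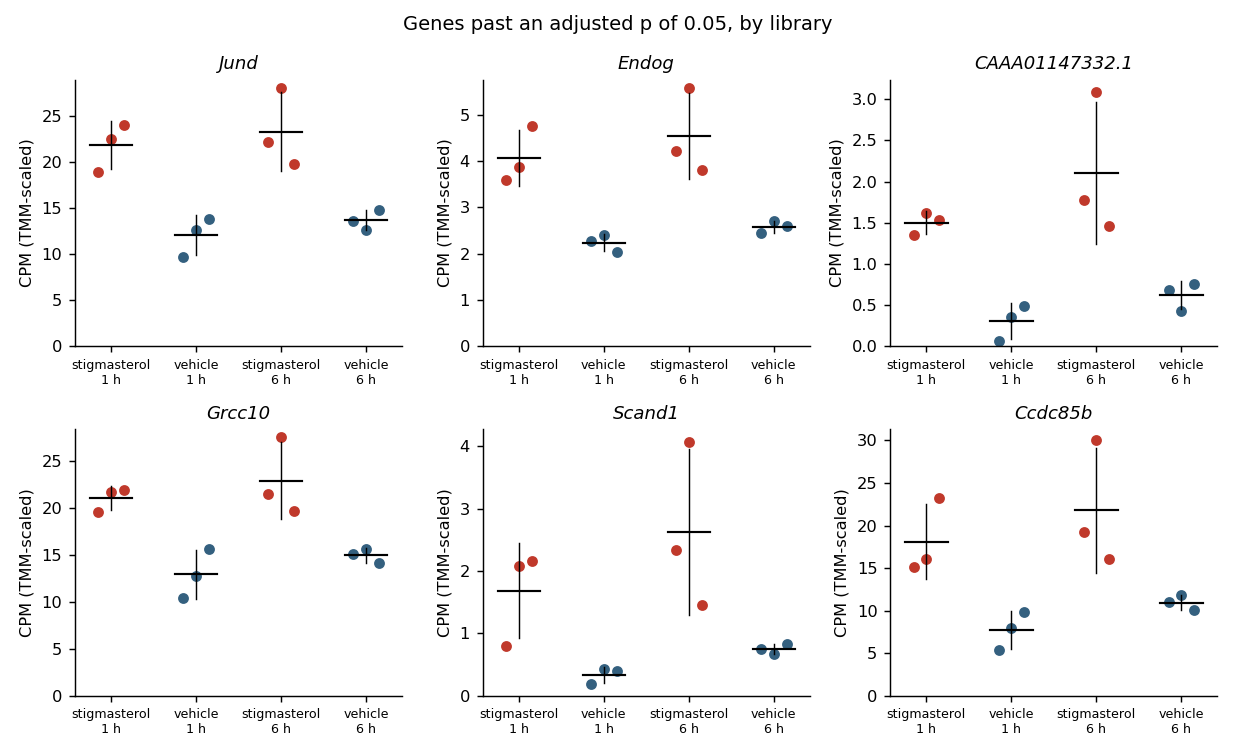
Level of each of the 6 genes past the threshold in every library (CPM, linear axis from 0), in stigmasterol (red) and vehicle (blue) libraries at 1 h and 6 h. Horizontal lines are group means and vertical lines are the SD over 3 mice. In each panel all 3 stigmasterol points lie above all 3 vehicle points at the same time.

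In the whole table, 137 genes (0.756%) had groups that did not overlap at either time with stigmasterol higher at both, 142 (0.784%) with stigmasterol lower at both, and 45 (0.248%) in opposite directions. Every stigmasterol library was above every vehicle library for 62 genes (0.342%) and below it for 41 (0.226%). Jund, Endog, Scand1 and Ccdc85b each overlap a gene on the opposite strand (Gm11175, Spout1, Cnbd2 and Fosl1), and Grcc10 overlaps Gm45234 and Rnu7 on its own strand. Some of the uncalled genes named below overlap others too. Among them are Olig1 (Gm15966) and Pcsk1n (Eras) on the opposite strand, and Sox2 (Sox2ot) and Dpm1 (Gm20716) on the same strand. Because the strandedness of the libraries is not given in the sources used here, reads of a gene and of its antisense partner cannot be told apart.

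The 10 named higher genes outside the threshold, taken in order of p with predicted and unnamed transcripts passed over, had adjusted p between 0.0792 and 0.112. A predicted transcript in that range of p, Gm48239, stood lower (-0.53 ± 0.10, adjusted p = 0.107) and was named after its values were seen. Olig1, which encodes a basic helix-loop-helix factor of oligodendrocytes (chr16:91269772-91271933), ranged from 116 to 174 CPM with stigmasterol (median 146 CPM) and from 78.7 to 117 CPM with vehicle (median 99.8 CPM). The groups were apart at each time, but over all 12 libraries the lowest with stigmasterol (116.1 CPM) lay below the highest with vehicle (116.9 CPM), with a log2 fold change of 0.58 ± 0.10 (adjusted p = 0.0792). Tpt1, which encodes the translationally controlled tumour protein, ranged from 21.8 to 28.8 CPM with stigmasterol and from 15.1 to 19.8 CPM with vehicle (0.53 ± 0.09, adjusted p = 0.0792). Tpt1 and Ptma (prothymosin alpha, 0.59 ± 0.11) have near-identical copies elsewhere in the genome, so their counts are uncertain. Pcsk1n encodes proSAAS, an inhibitor of the prohormone convertase PC1/3. It ranged from 119 to 277 CPM with stigmasterol and from 54.6 to 105.5 CPM with vehicle, without overlap, with a log2 fold change of 0.98 ± 0.17 (adjusted p = 0.107). C1qtnf4, a secreted protein of the C1q and TNF related family, ranged from 33.3 to 56.1 CPM with stigmasterol and from 6.93 to 24.5 CPM with vehicle (1.13 ± 0.21, adjusted p = 0.112). The remaining 5 of the 15 named higher genes were Uqcrq of respiratory complex III (0.43 ± 0.08), the mitochondrial ribosomal protein gene Mrpl52 (0.51 ± 0.09), the progenitor and astrocyte transcription factor Sox2 (0.41 ± 0.08), the RNA-binding protein gene Hnrnpa0 (0.32 ± 0.06) and Cox14, an assembly factor of cytochrome c oxidase (0.30 ± 0.06), with adjusted p of 0.0908 to 0.112.

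None of the 15 named lower genes passed the test, and their log2 fold changes were small. L3mbtl1, a Polycomb-related reader of methylated histones (chr2:162943472-162974522), had 11.3, 10.6 and 10.9 CPM at 1 h with stigmasterol, against 15.6, 13.2 and 14.6 CPM with vehicle. At 6 h it had 13.3, 11.1 and 13.5 CPM with stigmasterol, against 16.2, 19.7 and 14.9 CPM with vehicle. The groups were apart at each time, and the log2 fold change was -0.42 ± 0.08 (adjusted p = 0.123). Fyco1, an adaptor for the transport of autophagosomes (chr9:123789500-123851899), ranged from 112 to 149 CPM with stigmasterol and from 144 to 199 CPM with vehicle, with a log2 fold change of -0.28 ± 0.06 (adjusted p = 0.149). Ralgapa2, a subunit of a GTPase-activating complex for Ral (chr2:146239879-146512344), averaged 43.4 ± 3.4 CPM with stigmasterol and 51.3 ± 3.7 CPM with vehicle (-0.24 ± 0.05, adjusted p = 0.149). Asprv1, a skin aspartic protease, had the most negative value of the 15 (-0.62 ± 0.15), at 0.933 ± 0.155 CPM with stigmasterol and 1.44 ± 0.27 CPM with vehicle. Cacna1d, the pore subunit of the L-type calcium channel Cav1.3, stood at -0.24 ± 0.06, the neuron navigator gene Nav1 at -0.23 ± 0.06 and Ino80d, of the INO80 chromatin remodeller, at -0.21 ± 0.05. Spaca6 (-0.36), Fam135b (-0.27), Cpsf4l (-0.41), Morc2b (-0.49), the zinc finger gene Zfp112 (-0.28), Dpm1 of dolichol-phosphate-mannose synthesis (-0.27) and the MHC class I like gene H2-T24 (-0.27) were also among the 15. Of these 15, Cpsf4l, Morc2b and Ino80d, and no others, had every stigmasterol library below every vehicle library.

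Of 40 tested immediate early genes, 36 had a positive log2 fold change, 15 had an unadjusted p below 0.05 with stigmasterol higher and 0 with stigmasterol lower, and Jund alone passed the adjusted threshold. Their median log2 fold change was 0.18, against -0.0017 for all genes tested, of which 8943 of 18112 were positive. Of all genes tested, 4.72% were higher and 4.9% lower at an unadjusted p below 0.05. These shares are the background for such counts in this and the other lists. The mean log2 CPM of the list was 4.24, 3.97 and 4.48 with stigmasterol at 1 h against 3.96, 3.90 and 3.93 with vehicle, and 3.97, 4.12 and 3.97 with stigmasterol at 6 h against 3.86, 3.95 and 3.79 with vehicle. Replicates 1 and 8 at 1 h were the highest, and the lowest stigmasterol library (3.967) was just above the highest vehicle library (3.955). Junb, another AP-1 subunit, ranged from 21.6 to 34.5 CPM with stigmasterol and from 15.8 to 21.2 CPM with vehicle, without overlap (0.60 ± 0.13, adjusted p = 0.151). Gadd45g, a growth arrest and DNA damage gene that is also induced by activity, ranged from 17.2 to 29.1 CPM with stigmasterol and from 13.8 to 16.3 CPM with vehicle (0.49 ± 0.11, adjusted p = 0.151). The zinc finger factor gene Egr4 averaged 11.1 ± 4.0 CPM with stigmasterol and 6.29 ± 0.32 CPM with vehicle (0.80 ± 0.18, adjusted p = 0.151), at 1.05 ± 0.24 at 1 h and 0.54 ± 0.24 at 6 h. The wider AP-1 and ATF/CREB family had 22 of 29 members positive (median 0.08), with 6 higher and 2 lower at an unadjusted p below 0.05, the lower ones being the coactivator gene Crebbp (-0.13 ± 0.04) and Atf7 (-0.17 ± 0.06). With GC and length trends removed the median of immediate early genes was 0.16, with oligodendrocyte marker content as a covariate 0.12, and with striatal marker content as a covariate 0.09.

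The classical activity reporters were spread widely among stigmasterol mice and did not pass the test. Arc, a postsynaptic regulator of AMPA receptors, had 170, 66.9 and 302 CPM with stigmasterol at 1 h, against 156, 95.8 and 82.5 CPM with vehicle, so the groups overlapped. At 6 h Arc had 93.05, 125.5 and 100.2 CPM with stigmasterol, against 86.6, 101 and 81.9 CPM with vehicle (0.47 ± 0.27, adjusted p = 0.5996). Fos, the AP-1 partner of Jun proteins, had 12.5, 5.81 and 16.8 CPM with stigmasterol at 1 h against 10.7, 8.08 and 5.82 CPM with vehicle (0.30 ± 0.27 over both times, adjusted p = 0.744). Stigmasterol replicate 8 was the highest of the 1 h libraries for Arc and Fos, and replicate 11 of the same group was the lowest for both. Egr1 stood at 0.36 ± 0.18 (adjusted p = 0.539) and Npas4, a factor induced by calcium entry, at 0.11 ± 0.21 (adjusted p = 0.883).

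All 25 tested genes of cholesterol synthesis and uptake had a positive log2 fold change, with a median of 0.11, and 5 had an unadjusted p below 0.05, but none passed the adjusted threshold. With oligodendrocyte marker content as a covariate the median was 0.06. Sqle, squalene epoxidase, averaged 66.8 ± 4.4 CPM with stigmasterol and 59.1 ± 5.7 CPM with vehicle (0.18 ± 0.07, adjusted p = 0.406). The mevalonate pathway genes Mvd and Mvk stood at 0.28 ± 0.11 and 0.18 ± 0.08. Of 21 liver X receptor and sterol efflux genes 17 were positive, with a median of 0.06 and 2 of them at an unadjusted p below 0.05: Npc2, the lysosomal cholesterol carrier (0.20 ± 0.06), and Nr1h2, liver X receptor beta (0.20 ± 0.09). That count is close to the share of all genes tested at that level in either direction (9.62%). Abca1, the cholesterol efflux pump and a liver X receptor target, averaged 72.9 ± 5.3 CPM with stigmasterol and 76.7 ± 6.9 CPM with vehicle (-0.07 ± 0.06, adjusted p = 0.730).

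Among 26 glucocorticoid-responsive genes, 23 were positive, with a median of 0.18, and 9 had an unadjusted p below 0.05, all with stigmasterol higher. Without stigmasterol replicate 23 at 6 h the median was 0.11. Cebpd, a C/EBP transcription factor gene, ranged from 6.19 to 12.7 CPM with stigmasterol and from 3.79 to 6.18 CPM with vehicle (0.63 ± 0.13, adjusted p = 0.149). The groups did not overlap, by a margin of the last digit shown. Cebpb, of the same family, averaged 2.94 ± 0.59 CPM with stigmasterol and 1.96 ± 0.40 CPM with vehicle (0.59 ± 0.15, adjusted p = 0.231). The lipase gene Pnpla2 stood at 0.28 ± 0.09 and the mTORC1 inhibitor gene Ddit4 at 0.36 ± 0.11. Both standard reporters of the receptor had overlapping arms: Fkbp5, an immunophilin of the receptor complex, averaged 104 ± 30 CPM with stigmasterol and 92.8 ± 16.3 CPM with vehicle (0.17 ± 0.16, adjusted p = 0.764), and the kinase gene Sgk1 stood at 0.22 ± 0.15 (adjusted p = 0.652).

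Short nuclear genes of mitochondria were positive almost throughout. All 40 tested nuclear-encoded respiratory chain genes had a positive log2 fold change (median 0.11), 14 at an unadjusted p below 0.05 and none past the adjusted threshold. Cox8a, a cytochrome c oxidase subunit gene, ranged from 179 to 240 CPM with stigmasterol and from 146.5 to 176 CPM with vehicle, without overlap (0.35 ± 0.08, adjusted p = 0.149). The complex I subunit genes Ndufc1 and Ndufa2 stood at 0.28 ± 0.07 and 0.23 ± 0.07. Of 34 genes of the mitochondrial ribosome and import machinery 30 were positive (median 0.10) and 10 had an unadjusted p below 0.05, among them Mrpl34 (0.51 ± 0.11), Mrps34 (0.48 ± 0.13) and Mrps24 (0.25 ± 0.07). The 7 tested genes encoded by the mitochondrial genome itself were all negative (median -0.09), and none had an unadjusted p below 0.05. Of 45 cytosolic ribosomal protein genes 38 were positive (median 0.07), with the smallest p in Rplp2 (0.38 ± 0.07, adjusted p = 0.114), Rps6 (0.57 ± 0.15), Rps16 (0.34 ± 0.09) and Rplp1 (0.29 ± 0.08), which have near-identical copies and are uncertain. With trends in GC content and length removed, the medians were 0.04 for the respiratory chain, 0.04 for the mitochondrial ribosome and import genes and 0.01 for ribosomal proteins.

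Histone genes were positive for 16 of 18 members (median 0.18, 7 at an unadjusted p below 0.05). Their median was 0.02 at 1 h and 0.23 at 6 h, and 0.11 without vehicle replicate 14 at 6 h. H2afx, the histone variant phosphorylated at DNA breaks, ranged from 12.3 to 16.6 CPM with stigmasterol and from 8.74 to 11.2 CPM with vehicle, without overlap (0.48 ± 0.10, adjusted p = 0.134). H2afj stood at 0.27 ± 0.06, Hist3h2ba at 0.38 ± 0.10 and H3f3a at 0.21 ± 0.06. Interferon-stimulated and MHC class I genes were positive for 26 of 30 members (median 0.19), with the class I genes H2-D1 at 0.26 ± 0.07 and H2-K1 at 0.24 ± 0.08, which resemble each other closely and are uncertain. Genes of the NF-kappa-B family and inflammation were positive for 16 of 23 members (median 0.10), with the inhibitor genes Nfkbib at 0.38 ± 0.11 and Nfkbia at 0.32 ± 0.11. Genes of endoplasmic reticulum stress were positive for 23 of 25 (median 0.11), with Sdf2l1 at 0.46 ± 0.14 and the chaperone gene Hspa5 at 0.23 ± 0.10, and heat shock genes for 20 of 25 (median 0.04), with the near-identical Hspa1a at 0.57 ± 0.15 and Hspa1b at 0.52 ± 0.16. With GC and length trends removed the medians were 0.15 for histones and 0.12 for interferon-stimulated and MHC class I genes. With oligodendrocyte marker content as a covariate they were 0.11 for interferon-stimulated and MHC class I genes, 0.05 for NF-kappa-B and inflammation and 0.04 for endoplasmic reticulum stress. Without stigmasterol replicate 11 at 1 h the interferon and MHC median was 0.11, without stigmasterol replicate 8 at 1 h that of endoplasmic reticulum stress was 0.07, and without stigmasterol replicate 22 (6 h) or vehicle replicate 4 (1 h) that of NF-kappa-B and inflammation was 0.16 and 0.14. No gene of these 5 lists passed the adjusted threshold.

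Of 19 nuclear long non-coding RNAs 15 were negative (median -0.12), 6 at an unadjusted p below 0.05 and 0 with stigmasterol higher at that level. Their median was -0.03 with GC and length trends removed, -0.06 with the GC slope as a covariate and -0.07 with the striatal covariate. Ftx, a non-coding gene of the X inactivation centre, averaged 31.5 ± 6.6 CPM with stigmasterol and 41.3 ± 5.0 CPM with vehicle (-0.39 ± 0.10, adjusted p = 0.250). Kcnq1ot1 stood at -0.39 ± 0.12, Miat at -0.23 ± 0.08 and Meg3 at -0.29 ± 0.10, with overlapping arms. Sodium and calcium channel genes, with a median transcript length of 8230 bases, were negative for 18 of 27 members (median -0.04), with 5 lower and 1 higher at an unadjusted p below 0.05. Cacna1e, of the R-type calcium channel, averaged 495 ± 57 CPM with stigmasterol and 587 ± 40 CPM with vehicle (-0.25 ± 0.07, adjusted p = 0.270), and the ryanodine receptor gene Ryr2 and the L-type channel gene Cacna1c stood at -0.23 ± 0.07 and -0.19 ± 0.07. Importin and nuclear transport genes were negative for 23 of 27 members (median -0.03). Kpna1, importin alpha 5, averaged 109 ± 12 CPM with stigmasterol and 113 ± 13 CPM with vehicle (-0.05 ± 0.07, adjusted p = 0.839). Sphk1, sphingosine kinase, averaged 3.08 ± 1.34 CPM with stigmasterol and 2.61 ± 0.89 CPM with vehicle (0.27 ± 0.27, adjusted p = 0.766), and the 26 genes of sphingosine 1-phosphate and ceramide metabolism had a median of 0.03.

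**Figure D3:**
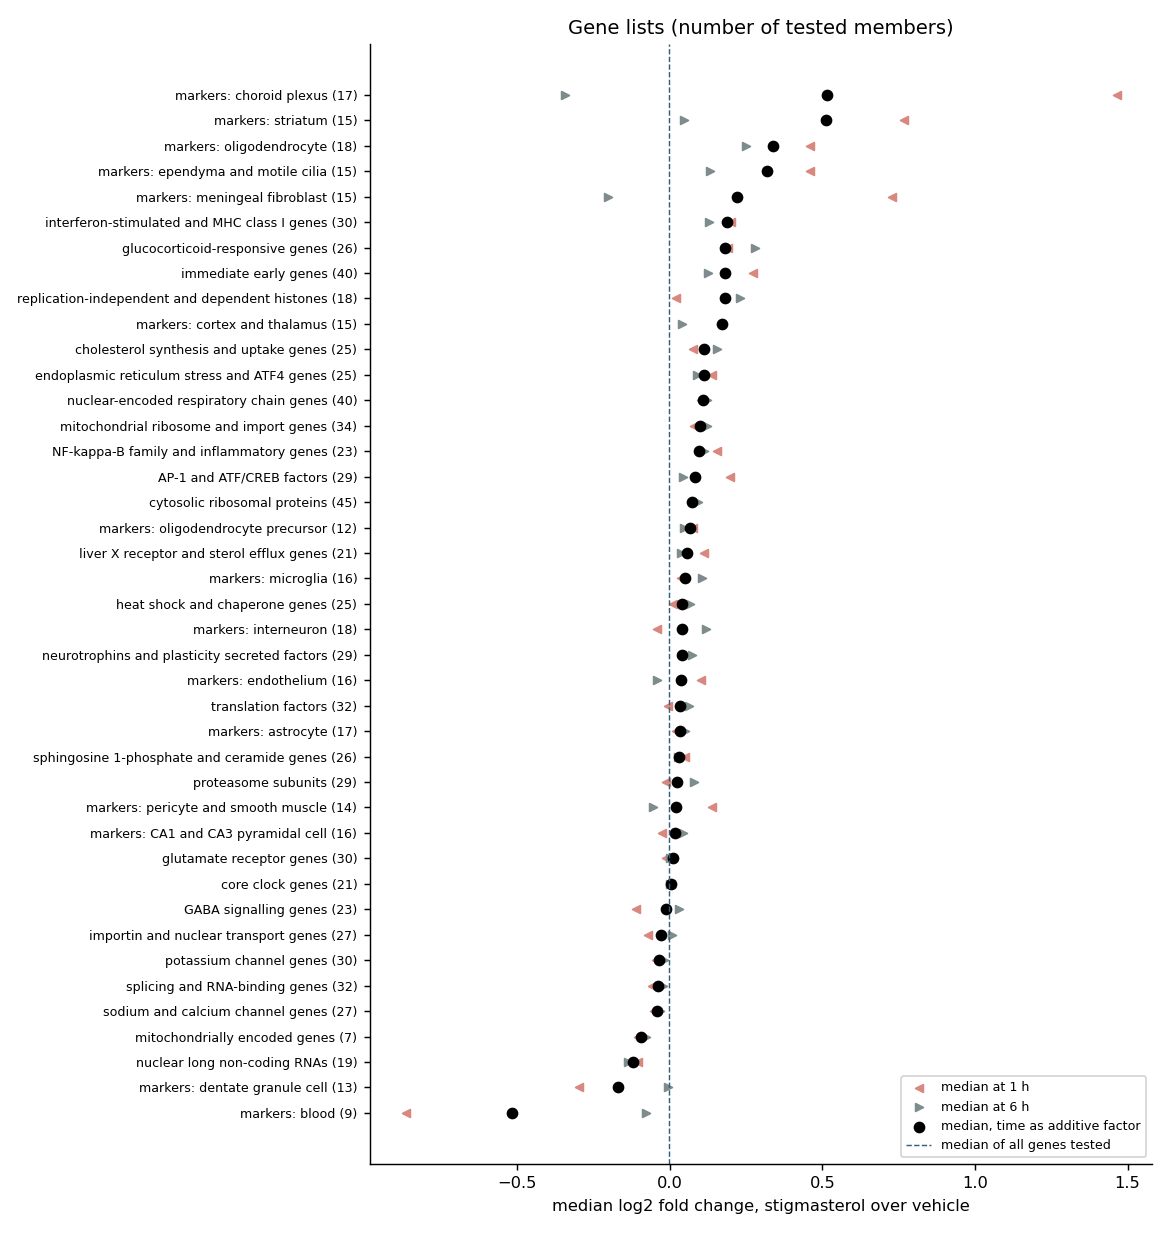
Median log2 fold change of stigmasterol over vehicle for each gene list (number of tested members in brackets), with time as an additive factor (black circles) and at 1 h and 6 h alone (triangles). The dashed line is the median of all genes tested. Immediate early and glucocorticoid-responsive genes have a median of 0.18, nuclear long non-coding RNAs -0.12, and choroid plexus markers 1.47 at 1 h and -0.34 at 6 h.

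Among cell type markers, all 18 oligodendrocyte markers were positive (median 0.34), 10 at an unadjusted p below 0.05: Olig1, the myelin genes Cldn11 (0.52 ± 0.15) and Mal (0.42 ± 0.14) and the lineage factor gene Sox10 (0.34 ± 0.11) had the smallest p. In bulk tissue, a change in the number of cells of a type and a change in RNA per cell cannot be told apart. Their mean log2 CPM was 6.92, 6.99 and 7.56 with stigmasterol at 1 h against 6.87, 6.46 and 6.78 with vehicle, and 7.25, 6.94 and 6.96 with stigmasterol at 6 h against 6.71, 6.47 and 7.18 with vehicle. With this mean as a covariate no gene passed (adjusted p from 0.650 to 0.794 for the 6 called genes), while the log2 fold change of Jund was 0.75 and that of Endog 0.79.

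For striatal markers, 13 of 15 were positive. Stigmasterol replicate 8 at 1 h had a mean of 5.12 log2 CPM for the list, against 3.49 to 3.79 in the other 11 libraries. Without that library the striatal median was 0.06 in place of 0.51, the median of immediate early genes was 0.13, and 0 genes passed (Jund 0.78, adjusted p = 0.0727). Choroid plexus markers averaged 3.11 to 5.94 log2 CPM in stigmasterol libraries, and 1.33 and 1.57 in vehicle replicates 4 and 9 at 1 h against 3.835 to 5.79 in the other vehicle libraries. All 17 were positive with time as an additive factor (median 0.51), yet the median was 1.47 at 1 h and -0.34 at 6 h. Leaving out vehicle replicates 4 and 9 together gave 0 called genes, with Jund at 0.78 (adjusted p = 0.0872). Dentate granule cell markers were negative for 12 of 13 members (median -0.17, 4 at an unadjusted p below 0.05, led by Trpc6 at -0.31 ± 0.09 and Glis3 at -0.27 ± 0.09), with a median of -0.30 at 1 h and -0.01 at 6 h. Beyond these values, the part of tissue content in the results was not tested.

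The effects at 1 h and at 6 h share no library. Over 15024 genes averaging 1 CPM or more, the Spearman correlation of the log2 fold changes was 0.301 across genes, which are not independent replicates, and 9066 (60.3%) had the same sign. Of 1145 genes with an unadjusted p below 0.05 at 1 h, 866 (75.6%) had the same sign at 6 h, and of 549 such genes at 6 h, 462 (84.2%) had the same sign at 1 h. The test of the difference between the 2 effects called 0 genes with edgeR, DESeq2, limma-voom and limma on the normalized values, and 410 (2.26%) had an unadjusted p below 0.05 with edgeR.

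**Figure D4:**
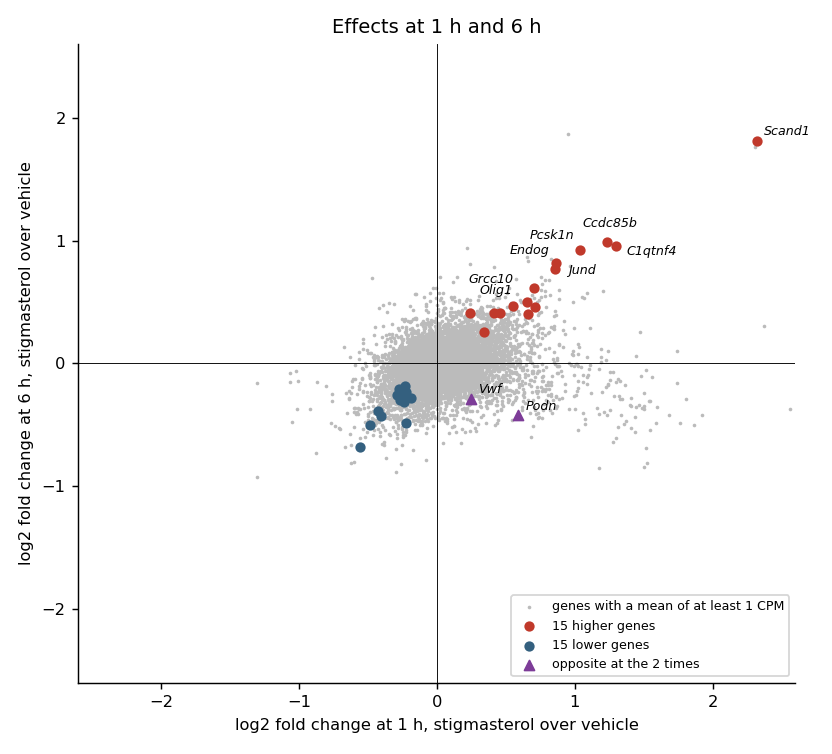
Log2 fold change of stigmasterol over vehicle at 1 h (x axis) and at 6 h (y axis) for 15024 genes averaging 1 CPM or more, of which 2 fall outside the axes. The 15 higher genes (red) lie in the upper right and the 15 lower genes (blue) in the lower left, while Podn and Vwf (purple triangles) lie in the lower right.

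Podn and Vwf were the 2 genes that the naming rule gave as opposite at the 2 times. Podn, which encodes the matrix proteoglycan podocan, averaged 6.96 ± 1.19 CPM with stigmasterol and 4.61 ± 0.43 CPM with vehicle at 1 h, and 6.47 ± 0.80 CPM with stigmasterol and 8.66 ± 0.47 CPM with vehicle at 6 h (SD, n = 3 each). The difference of its effects (6 h minus 1 h) was -1.01 ± 0.20 (unadjusted p = 0.000218, adjusted p = 1). Vwf, the von Willebrand factor of endothelium, averaged 38.4 ± 3.8 CPM with stigmasterol and 32.4 ± 1.7 CPM with vehicle at 1 h, and 45.8 ± 1.7 CPM with stigmasterol and 55.8 ± 4.3 CPM with vehicle at 6 h. Its difference was -0.53 ± 0.12 (unadjusted p = 0.00076, adjusted p = 1). For both genes the means of the stigmasterol groups at 1 h and 6 h lay closer together than those of the vehicle groups. Both were chosen for opposite effects at the 2 times. This pattern and the unadjusted p-values are therefore not independent of that choice.

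Fold changes moved with the base composition and length of the transcript across all genes. Over 15005 genes with a value, the Spearman correlation of the log2 fold change was 0.426 with GC content (0.474 at 1 h and 0.211 at 6 h) and -0.278 with transcript length, computed across genes of the same 12 libraries. The median log2 fold change was -0.08 for 754 genes under 40% GC, 0.01 for 3918 genes from 50% to 55%, 0.12 for 678 genes from 60% to 65% and 0.29 for 64 genes of 65% or more, of which 93.8% were positive. It was 0.07 for transcripts of 500 to 1000 bases and -0.08 for those of at least 8000 bases. Median GC content was 64.4% for the 5 called genes with a value and 50.1% for all. It was 56.4% for the 15 higher genes and 50% for the 15 lower genes, which leave out predicted and unnamed transcripts. With such transcripts kept, genes at an unadjusted p below 0.01 had a median of 57.6% on the higher side and 47% on the lower side. Median lengths of the called, 15 higher, 15 lower and all genes were 1063, 1290, 3857 and 3183 bases. Among genes averaging 1 CPM or more with an unadjusted p below 0.01, 3.39% of the 236 higher ones were not protein coding. The share was 45.8% of the 167 lower ones, against 8.75% of all 15024 genes averaging 1 CPM or more.

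By library, the slope of log2 CPM on GC content (per 10 percentage points, relative to each gene's mean) ranged from -0.16 to 0.29 with stigmasterol and from -0.15 to 0.07 with vehicle (exact permutation within times, two-sided p = 0.255, Benjamini-Hochberg 0.425 over 5 library measures). The highest slopes were in stigmasterol replicates 22 (6 h) and 8 (1 h), and the lowest of all 12 was in stigmasterol replicate 23 (6 h). The slope on length ranged from -0.05 to 0.02 with stigmasterol and from -0.0042 to 0.05 with vehicle (exact permutation p = 0.025, Benjamini-Hochberg 0.125). With the GC slope as a covariate 4 genes passed, 3 of them Jund (0.71), Endog (0.71) and Ccdc85b (0.88). With both trends removed the same 3 genes passed, at 0.49, 0.58 and 1.07, and Grcc10 (0.55) and Scand1 (1.61) had an adjusted p of 0.0550, while CAAA01147332.1 had no GC value and was not in that fit. Beyond these values, the part of GC content and length in the results was not tested.

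**Figure D5:**
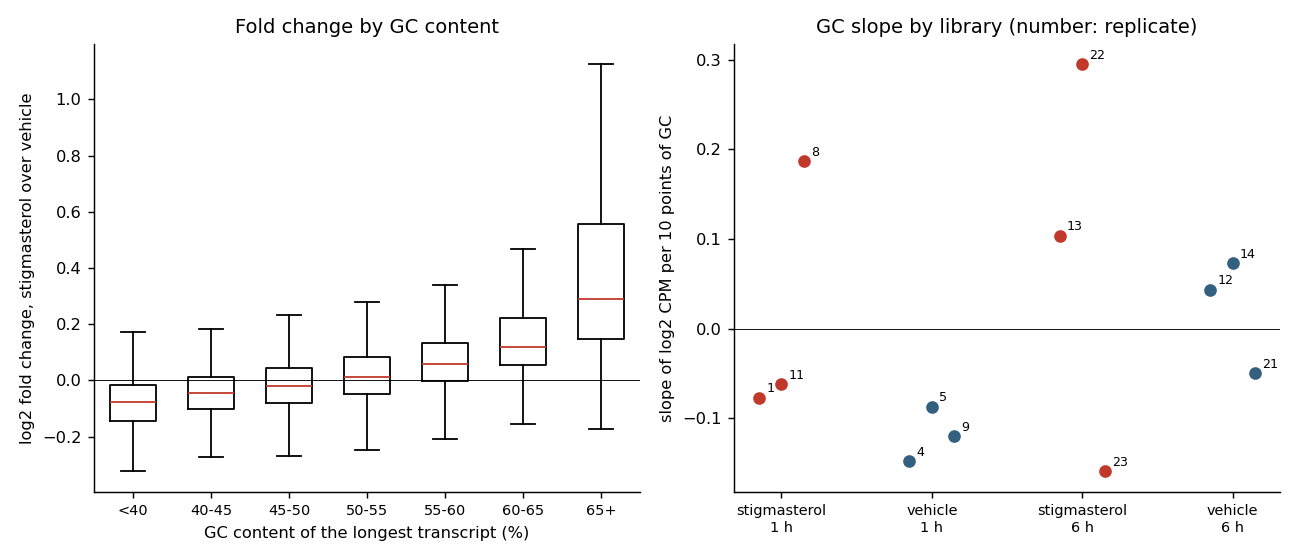
Left, log2 fold change of stigmasterol over vehicle by GC content of the longest transcript (boxes are quartiles with the median in red, whiskers reach 1.5 times the box height, outliers not drawn). Right, slope of log2 CPM on GC content in each library, with the replicate number beside each point, in stigmasterol (red) and vehicle (blue) libraries. Medians climb with GC content, and stigmasterol libraries hold the highest slopes (replicates 22 and 8) and the lowest (replicate 23).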

How the data were processed

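Per the labels' protocols, hippocampal RNA came from RNAqueous-Micro kits, had a RIN no lower than 7 and was made into TruSeq mRNA libraries. The submitters' processing notes name STAR 2.4.2a, the counter HTSeq 0.6.1p1, bcl2fastq 2.17.1.14, cutadapt, DESeq and DESeq2 1.10.1 on genome build GRCm38, and their order and settings are not given in the sources used here. The deposited raw table holds read counts per gene made by the authors. A second deposited table holds signal, the authors' counts divided by a library size factor (largest deviation 0.00984), and served in 1 alternative.

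Groups and replicate numbers came from the sample titles, with 3 mice per group. The counts were tested with edgeR 4.0.16 (R 4.3.3): filterByExpr (18112 of 21532 genes kept), TMM factors, and a quasi-likelihood fit with time and treatment as additive terms on all 12 libraries. A 4-group model gave the effects at 1 h and 6 h and their difference. Benjamini-Hochberg adjustment ran over all genes tested. SE is the standard error of a log2 fold change, with a median of 0.0811 for genes of at least 1 CPM, and the common biological coefficient of variation was 0.121. CPM used TMM-scaled totals, and log2 CPM a prior count of 2, except for the flagged values of single called genes, which had none. Alternatives used DESeq2 1.42.0 and limma 3.58.1 (limma on log2 of the authors' signal plus 1). The p-values cover the spread between mice and counting error.

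Coordinates, GC content and length came from GENCODE M21 (21501 genes matched, 31 not), using the longest transcript. Pearson correlations between libraries were 0.975 to 0.996, and no 2 columns were identical.

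The rule for named genes took the 15 higher and 15 lower genes with the smallest p, a mean of at least 1 CPM and no predicted or unnamed transcripts, up to 4 members with the smallest p in each of 41 lists, up to 5 genes with opposite effects at the 2 times, and a set of 11 genes. Some genes under this rule are not reported here and were not replaced. The comparison and the lists were chosen with earlier results of these data known, so a list's direction is not independent support. On simulated data with 17959 genes, the procedure found, out of 50 altered genes per size, 21 at 1.25-fold, 36 at 1.5-fold, 47 at 2-fold and all 50 at 4-fold, made 5 false calls, and called 0 genes when nothing was altered. The simulated counts were drawn independently for each gene, without trends in GC content, length or tissue content within a library. False calls and recovery under such trends, as in the real libraries, were not tested.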

Additional observations from a re-analysis of the deposited data

Results flagged for a closer look

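Single libraries stood apart from the other 5 of their arm in 10 of 98 arms tested (49 measures, 6 libraries per arm). For independent values from 1 population, chance marks about 1 arm in 20. Here each arm pooled 1 h and 6 h libraries, and some lists share genes. The called genes were also chosen by their p in these libraries, so the 10 arms cannot be set against that rate. In the stigmasterol arm, the striatal marker mean was 5.12 log2 CPM in replicate 8 at 1 h (nearest other 3.79), and the core clock gene mean was 5.63 in replicate 11 at 1 h (nearest other 5.845). In the vehicle arm, the glucocorticoid-responsive mean was 4.996 in replicate 12 at 6 h (nearest other 4.78), and replicate 21 at 6 h was high for sphingosine 1-phosphate and ceramide genes at 4.86 (nearest other 4.725) and for interferon-stimulated and MHC class I genes at 3.06 (nearest other 2.79). Dentate granule cell markers averaged 5.94 in vehicle replicate 5 at 1 h (nearest other 5.74).

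For the called genes, log2 CPM was taken here without a prior count. For CAAA01147332.1 it was 1.63 in stigmasterol replicate 22 at 6 h (nearest other 0.82). In vehicle replicate 4 at 1 h, where that gene had 2 counts, it was -4.01 (nearest other -1.50). The same stigmasterol library was high for Grcc10 at 4.79 (nearest other 4.46), and the same vehicle library was low for Jund at 3.27 (nearest other 3.66).

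Podn and Vwf had groups that did not overlap at either time, in opposite directions at 1 h and 6 h. The naming rule chose both genes for their opposite effects. Their differences of effects (6 h minus 1 h) were -1.01 and -0.53 on the log2 scale and did not pass the test (adjusted p of 1 for each).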

How the results depend on the processing

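The count of called genes (6) was 6 with DESeq2 size factors and without a filter, 5 with a robust fit and 9 at an adjusted p of 0.1. It was 3 with upper-quartile factors, 2 with a stricter filter (at least 1 CPM in a group and a mean of 2 CPM), 1 with limma-voom, 2 with limma on the normalized values, 120 with DESeq2, 0 for the average effect in a 4-group model, 1 without the time term, and 0 with the 1 h or the 6 h libraries alone. With a covariate it was 3 for choroid plexus, 0 for striatal and 0 for oligodendrocyte marker content and 4 for the GC slope, and with GC and length trends removed it was 3. Leaving out vehicle replicates 4 and 9 at 1 h gave 0, and leaving out stigmasterol replicate 8 at 1 h as well gave 1, which was not among the 6. Without 1 library at a time it ranged from 0 to 73. The cause of these differences was not tested. The covariates for oligodendrocyte content and GC slope and the removal of 3 libraries were chosen after seeing the data. The difference of effects between 6 h and 1 h gave 0 genes in every alternative in which it was computed.

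Each of the 6 genes kept its sign in every alternative that held it. Jund was called in 16 of 31 alternatives (0.49 to 0.88), Endog in 11 of 31 (0.58 to 0.89), CAAA01147332.1 in 8 of 29 (1.76 to 2.32), Scand1 in 7 of 30 (1.61 to 2.34), Grcc10 in 6 of 31 (0.55 to 0.72) and Ccdc85b in 6 of 31 (0.88 to 1.254). None of the 15 higher or 15 lower genes changed sign. These genes and the called ones were chosen by their p in the same libraries. Their kept sign is therefore not independent support. Of 119 genes followed, 7 changed sign, all uncalled.

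The log2 fold change of Abca1 was 0.0211 with 1 h libraries alone, and that of Vwf 0.26. With 6 h libraries alone, Sphk1 was -0.19, Kpna1 0.0234, Npas4 -0.11 and Podn -0.42. With the striatal covariate Kpna1 was 0.0101, Npas4 -0.11 and Podn -0.00648, and with the choroid plexus covariate Podn was -0.0554. With trends removed Kpna1 was 0.000848. With the GC slope covariate Kpna1 was 0.0270 and Npas4 -0.0612. Without the 3 libraries Kpna1 was 0.00883, Npas4 -0.0108 and Podn -0.11, and without vehicle replicates 4 and 9 Podn was -0.0859. Without 1 library at a time, the ranges were -0.0353 to 0.24 for Fkbp5, -0.0309 to 0.41 for Sphk1, -0.0380 to 0.27 for Npas4, -0.0170 to 0.17 for Podn and -0.0792 to 0.0254 for Vwf.

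No paired analysis was possible because the groups share no replicate number. The counts behind the called genes were lowest for CAAA01147332.1 (2 to 23 in vehicle libraries) and Scand1 (6 to 25).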

Other observations

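Of 23 GABA signalling genes 10 were positive (median -0.01), with Slc32a1, the vesicular GABA transporter, at 0.31 ± 0.09 (59.3 ± 9.3 CPM with stigmasterol and 47.9 ± 2.5 CPM with vehicle, adjusted p = 0.305). Of 30 glutamate receptor genes 16 were positive (median 0.01), with the kainate receptor gene Grik2 at -0.19 ± 0.08. Of 30 potassium channel genes 12 were positive (median -0.04), with the leak channel genes Kcnk1 at 0.24 ± 0.08 and Kcnk9 at -0.23 ± 0.08. Among 29 secreted plasticity factors and their receptors 19 were positive (median 0.04), with Metrn, a glial neurite growth factor, at 0.62 ± 0.13 (7.48 ± 0.86 CPM with stigmasterol and 4.94 ± 1.32 CPM with vehicle, adjusted p = 0.149), the neuropeptide precursor gene Vgf at 0.41 ± 0.12, somatostatin (Sst) at 0.29 ± 0.11 and the neurotrophin 3 receptor gene Ntrk3 at -0.22 ± 0.07. Splicing and RNA-binding genes were positive for 9 of 32 (median -0.04, Hnrnpa1 at -0.18 ± 0.07), translation factors for 22 of 32 (median 0.03) and proteasome subunits for 21 of 29 (median 0.02, Psmb4 at 0.17 ± 0.05). None of these genes passed the adjusted threshold.

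Markers of other hippocampal cell types had small medians, at 0.03 for 17 astrocyte, 0.05 for 16 microglial, 0.04 for 16 endothelial, 0.02 for 16 pyramidal cell and 0.04 for 18 interneuron markers. Single members were Sox9 of astrocytes (0.20 ± 0.06), C1qc of microglia (0.21 ± 0.08), Cldn5 of endothelial tight junctions (0.25 ± 0.07) and Adarb2 of interneurons (-0.25 ± 0.08). Of interneuron markers 11 of 18 were positive, with 3 higher and 1 lower (Adarb2) at an unadjusted p below 0.05. Of endothelial markers 10 of 16 were positive, with 1 higher (Cldn5) and 0 lower at that level. Astrocyte markers were positive for 13 of 17 and microglial markers for 13 of 16, each with 1 higher and 0 lower at that level. Medians were 0.10 at 1 h and -0.04 at 6 h for endothelial markers, and -0.04 and 0.12 for interneuron markers. Cortex and thalamus markers were positive for 13 of 15 (median 0.17). Their highest mean was 3.92 log2 CPM, in stigmasterol replicate 8 at 1 h. All 15 ependymal markers were positive (median 0.32), with the cilia master regulator Foxj1 at 0.81 ± 0.32 at 1 h and 0.24 ± 0.31 at 6 h. Meningeal fibroblast markers were positive for all 15 (median 0.22), at 0.73 at 1 h and -0.20 at 6 h, and 9 blood genes had a median of -0.52 (-0.87 at 1 h and -0.08 at 6 h). Vehicle replicate 5 at 1 h had the highest mean of these blood genes (2.52 log2 CPM, other vehicle libraries 1.08 to 1.98), and without it the median of the list was 0.0075. It was 0.09 with oligodendrocyte marker content as a covariate. The 21 core clock genes had a median of 0.00, with Cry1 at 0.19 ± 0.08.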
